A study of Rattus norvegicus with 6 samples.

Results

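CpG islands are stretches of DNA rich in CG dinucleotides, and many of them cover gene promoters. In most tissues, promoter islands carry little 5-methylcytosine, and dense methylation there is associated with silent genes. Well-known exceptions are imprinted genes, in which the island of a parental allele is methylated, and islands of the inactive X chromosome in female cells. The regions described here are the differentially methylated regions (DMRs) in the CG context that the authors' annotation assigned both to a CpG island and to a gene promoter. By this rule, which uses position and not methylation, 1355 of 5849 CG regions were chosen, out of 24862 annotated regions in all cytosine contexts.

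The regions came from a comparison of hippocampal brain microvascular endothelial cells (BMECs), which build the blood–brain barrier, between unstressed rats (Ctrl) and rats under chronic unpredictable mild stress (CUMS), which lasted 8 weeks. Each group comprised 3 samples, and the study's methods describe adult male Sprague-Dawley rats and cells sorted from dissociated hippocampus as CD45-/CD31+. No transgene, deletion or other agent is given for either group. DNA was converted enzymatically with TET2 and APOBEC3A, so that a cytosine left undeaminated was read as methylated. The tables give a single level per group and region, combined by the authors over the 3 samples, so that no value below carries a replicate error. The number of reads behind each level is unknown, the spread between rats could not be assessed, and no test was applied. Every region had been listed because DSS, the authors' tool, found the groups to differ there, and directions and sizes are therefore descriptions of a selected list. A group level is an average over all sorted cells, so a change in a share of the cells and a smaller change in every cell cannot be told apart.

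The labelled cell type could not be checked on these regions, because methylation at an island is not a measure of expression and 0 of the 24 genes chosen as defining markers of endothelial, neuronal, glial, immune and mural cells carried a region in a promoter island. Of these markers, 2 carried a CG region of any kind.

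To show the DNA in question, promoter sequences are given for 10 genes with regions described below. They are imprinted genes (Peg3, Sgce, Mest), genes with the largest higher levels in CUMS (Crim1, H3f3a, Rps6ka3), genes with lower levels (Bcor, Memo1), and the glucocorticoid receptor gene Nr3c1 and Foxf2, a transcription factor gene of brain endothelium and pericytes. Each sequence comprises the 200 bases before the RefSeq transcription start on the GRCr8 assembly, written 5′ to 3′ on the strand of the gene, with CG dinucleotides in capitals. The methylation tables use the mRatBN7.2 assembly, and the position of a region within these sequences is therefore not given. For Peg3, Sgce and Crim1, a region was annotated to a transcription start site (TSS) of the gene.
Peg3 (chr1:76130794-76130993, plus strand): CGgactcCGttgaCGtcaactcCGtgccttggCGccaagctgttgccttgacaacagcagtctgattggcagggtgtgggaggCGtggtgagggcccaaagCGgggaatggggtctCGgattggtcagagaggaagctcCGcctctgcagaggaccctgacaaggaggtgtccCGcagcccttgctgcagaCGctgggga
Sgce (chr4:33808789-33808988, minus strand): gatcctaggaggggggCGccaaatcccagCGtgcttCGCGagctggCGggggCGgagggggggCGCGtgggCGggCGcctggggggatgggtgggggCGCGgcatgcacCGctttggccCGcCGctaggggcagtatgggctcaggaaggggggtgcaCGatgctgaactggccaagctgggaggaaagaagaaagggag
Mest (chr4:60321614-60321813, plus strand): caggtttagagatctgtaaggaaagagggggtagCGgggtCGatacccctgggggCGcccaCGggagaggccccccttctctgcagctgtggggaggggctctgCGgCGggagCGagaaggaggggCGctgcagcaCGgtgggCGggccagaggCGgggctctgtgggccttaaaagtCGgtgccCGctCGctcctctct
Crim1 (chr6:22622417-22622616, minus strand): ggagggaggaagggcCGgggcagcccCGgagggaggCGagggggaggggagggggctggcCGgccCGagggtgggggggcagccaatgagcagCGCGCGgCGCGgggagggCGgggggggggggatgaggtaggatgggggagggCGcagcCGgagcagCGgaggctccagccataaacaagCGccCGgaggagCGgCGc
H3f3a (chr13:95076696-95076895, minus strand): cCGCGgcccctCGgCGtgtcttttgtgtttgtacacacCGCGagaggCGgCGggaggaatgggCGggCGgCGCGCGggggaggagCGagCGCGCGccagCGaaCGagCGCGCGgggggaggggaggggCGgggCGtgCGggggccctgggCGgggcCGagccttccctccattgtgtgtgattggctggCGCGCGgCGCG
Rps6ka3 (chrX:39431685-39431884, minus strand): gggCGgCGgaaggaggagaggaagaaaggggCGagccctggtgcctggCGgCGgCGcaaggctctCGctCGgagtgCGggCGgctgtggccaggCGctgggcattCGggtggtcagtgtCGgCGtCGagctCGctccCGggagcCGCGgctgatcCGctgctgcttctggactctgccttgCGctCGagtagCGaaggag
Bcor (chrX:13360176-13360375, plus strand): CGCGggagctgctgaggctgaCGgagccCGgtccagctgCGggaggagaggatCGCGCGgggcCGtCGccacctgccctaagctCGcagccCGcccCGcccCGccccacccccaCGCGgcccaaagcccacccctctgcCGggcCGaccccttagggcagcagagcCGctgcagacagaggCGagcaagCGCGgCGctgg
Memo1 (chr6:26896902-26897101, plus strand): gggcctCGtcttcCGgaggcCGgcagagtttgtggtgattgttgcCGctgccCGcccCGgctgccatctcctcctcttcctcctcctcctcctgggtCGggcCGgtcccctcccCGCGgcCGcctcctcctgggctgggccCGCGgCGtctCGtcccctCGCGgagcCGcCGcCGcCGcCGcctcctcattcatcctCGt
Nr3c1 (chr18:31614220-31614419, minus strand): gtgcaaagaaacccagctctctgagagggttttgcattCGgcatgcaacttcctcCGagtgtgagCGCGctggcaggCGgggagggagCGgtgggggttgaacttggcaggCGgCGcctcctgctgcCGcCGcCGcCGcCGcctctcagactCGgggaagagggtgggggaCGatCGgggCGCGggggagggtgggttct
Foxf2 (chr17:33051260-33051459, minus strand): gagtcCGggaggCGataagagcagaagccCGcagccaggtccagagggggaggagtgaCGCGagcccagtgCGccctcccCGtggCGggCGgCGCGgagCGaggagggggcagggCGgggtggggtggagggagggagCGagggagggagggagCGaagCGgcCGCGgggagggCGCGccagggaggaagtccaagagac
The number of CG dinucleotides in these 200 bases was highest for H3f3a, at 32, and lowest for Peg3, at 11. Mest held 14, Sgce 16, Crim1 and Nr3c1 18 each, Foxf2 20, and Bcor, Memo1 and Rps6ka3 23 each. All of these dinucleotides can carry methylation on both strands.

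The direction of the difference was examined first. Of the 1355 promoter island regions, 1342 were higher in CUMS (hypermethylated), or 99.0%, and 13 were lower (hypomethylated), or 0.959%. Among all CG regions, 80.0% were higher and the remaining 1167 regions lower. The median level over the promoter island regions was 6.25% in Ctrl (quartiles 5.16% and 7.77%) and 17.8% in CUMS (quartiles 13.7% and 24.3%). The median difference was 11.4 percentage points (quartiles 8.12 and 16.4), and the median ratio of the CUMS to the Ctrl level was 2.80 (quartiles 2.36 and 3.33). In Ctrl, 1211 regions (89.4%) had a level below 10%, compared with 60 regions (4.43%) in CUMS. Promoter islands that were nearly free of methylation in unstressed rats thus made up most of the list. Of all CG regions, 46.8% had a Ctrl level below 10%. A listed region at such a level has little room to be lower, so the share of 99.0% cannot be read apart from the starting level. A level of 50% or more was measured in 15 regions in Ctrl and in 29 in CUMS.

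**Figure D1:**
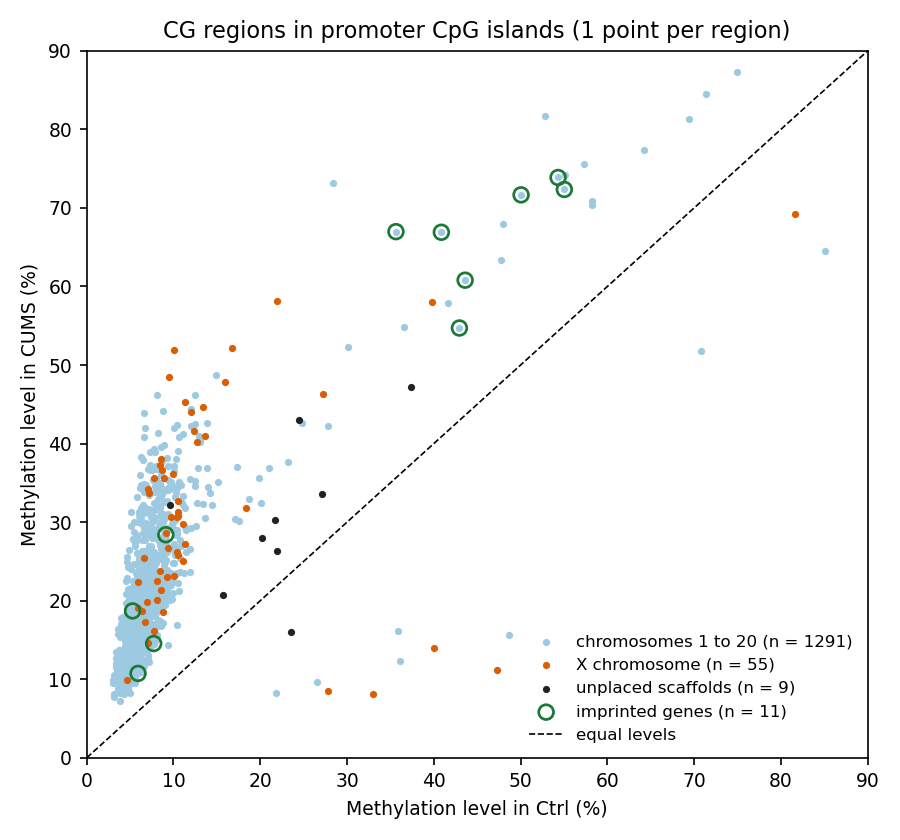
Methylation level in Ctrl (x axis, %) against CUMS (y axis, %) for each of the 1355 CG regions in promoter CpG islands. Points above the dashed line are higher in CUMS (1342 regions), and the 13 points below it are lower. Regions on chromosomes 1 to 20, on the X chromosome and on unplaced scaffolds are coloured separately, and rings mark the 11 regions of imprinted genes, 7 of which lie apart from the dense cloud at low Ctrl levels.

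The size of the difference was moderate in most promoter islands. The minimum named in the study's methods, 10 percentage points, was reached by 823 regions (60.7%), compared with 76.1% of all CG regions. At least 20 points were reached by 202 regions (14.9%) and at least 30 points by 34 (2.51%). The smallest difference among the promoter island regions was 3.18 points. The regions were short, with a median length of 130 bp (51 to 1968 bp) and a median of 35 CG cytosines (5 to 506).

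The levels were set beside those of other classes of CG region. Regions in islands within gene bodies but outside promoters (1443 regions) had median levels of 6.23% in Ctrl and 17.4% in CUMS, and 96.7% of them were higher. Promoter and gene-body islands therefore had nearly the same medians in both groups. In intergenic islands (285 regions) the medians were 8.26% and 23.6%, and 89.1% were higher. The 145 regions in promoters outside islands started from a much higher level, with medians of 36.1% in Ctrl and 45.4% in CUMS, and 76.6% were higher. These classes were compared as descriptions, since all of their levels come from the same 2 pooled groups.

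**Figure D2:**
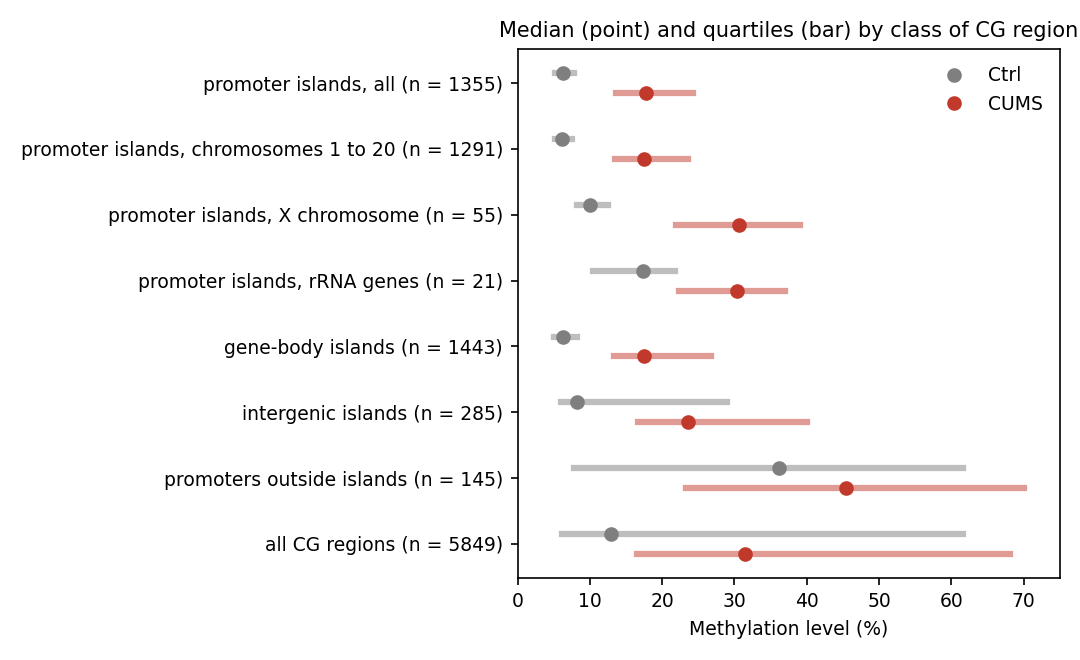
Methylation level (%) in Ctrl (grey) and CUMS (red) for classes of CG region, with the median over regions as a point and the quartiles as a bar. Promoter islands and gene-body islands show nearly the same medians (6.25% and 6.23% in Ctrl, 17.8% and 17.4% in CUMS), promoter islands of the X chromosome lie higher in both groups, and promoters outside islands start from 36.1%.

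The difference was also described by the level in Ctrl, which is itself a term of the difference. In the 292 regions below 5% in Ctrl the median level was 4.45% in Ctrl and 12.1% in CUMS, in the 919 regions from 5% to 10% it was 6.52% and 19.1%, and in the 95 regions from 10% to 20% it was 11.1% and 32.4%. The median ratio of the levels was 2.81, 2.84 and 2.78 in these classes, so that the difference in points grew with the starting level while the ratio changed little. Above a Ctrl level of 20% both directions were present. The 34 regions from 20% to 50% comprised 24 that were higher and 10 that were lower, with a median ratio of 1.39. The 15 regions at 50% and over comprised 12 higher and 3 lower, with a ratio of 1.21. All 13 lower regions thus had a Ctrl level above 20%. Since every region was listed for a difference, regions with a low Ctrl level had little room to be listed as lower. The directions by Ctrl level are therefore partly set by this selection.

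**Figure D3:**
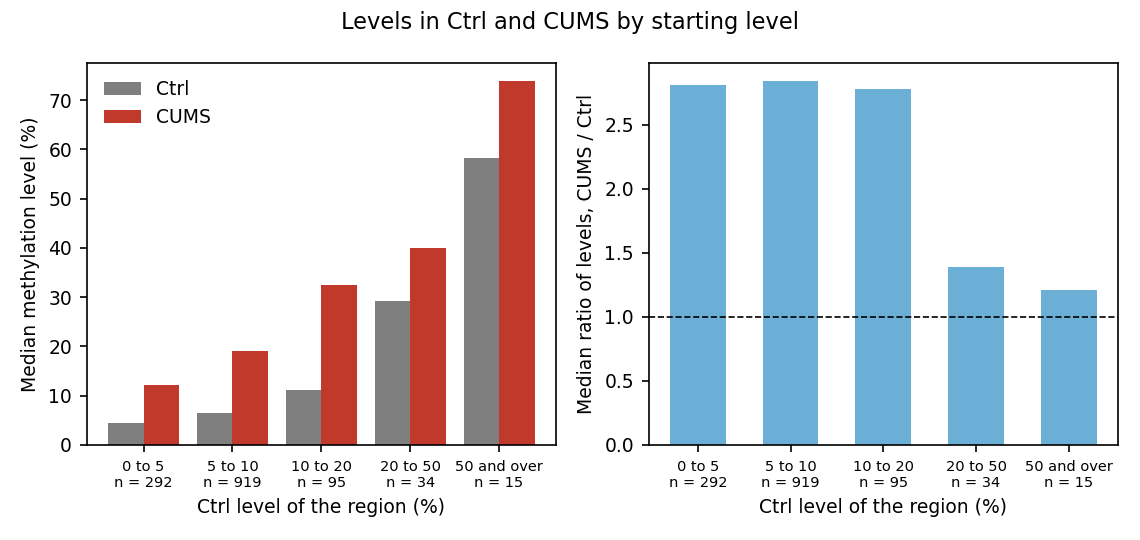
Promoter island regions grouped by their Ctrl level (x axis, %). The left panel shows the median level in Ctrl (grey) and CUMS (red) in %, and the right panel the median ratio of the CUMS to the Ctrl level, which is 2.81, 2.84 and 2.78 in the 3 lower classes and 1.39 and 1.21 in the 2 upper classes.

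Position within the island and the gene was examined next. The regions lay in islands with a median length of 986.5 bp (213 to 15716 bp), and a region covered a median of 13.4% of its island. The centre of the region fell in the inner 50% of the island length for 878 regions (64.8%), and 55 regions reached past an island edge. The median difference lay between 10.96 and 12.01 points in 5 classes of distance from the island edge. It varied more with the density of CG cytosines, from 14.1 points in the quartile of regions with the lowest density to 10.2 points in the quartile with the highest. With length it ran from 8.51 points in the shortest quartile to 15.3 points in the longest, which held regions of 206 bp or more.

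A TSS was annotated in 426 of the promoter island regions, an exon in 762, a 5′ untranslated region in 656 and an intron in 401. Regions with a TSS had a median of 6.17% in Ctrl and 18.5% in CUMS, and 425 of 426 were higher. Regions without one had medians of 6.28% and 17.4%, and 917 of 929 were higher. The 454 regions annotated to the promoter but to no part of the gene body had medians of 6.47% and 17.7%. Regions annotated to a TSS and regions annotated to the promoter alone thus had similar levels.

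A single promoter island region was present in 1124 islands and more than 1 in 110 islands. In 109 of these all regions had the same direction, and the median spread of the difference within an island was 5.74 points. The exception was the island of Zmynd11, which encodes a reader of methylated histone H3. At 60543189 to 60543341 on chromosome 17 the level was 6.38% in Ctrl and 20.3% in CUMS, whereas at 60543568 to 60543660 it was 26.6% in Ctrl and 9.69% in CUMS. Both stretches lie in the same island of 1409 bp, are annotated to an exon, an intron and the 5′ untranslated region, and differed in opposite directions.

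The regions belonged to the promoters of 1360 genes, and 127 regions lay in a promoter annotated to several genes. Of these genes, 225 (16.5%) also carried a CG region that was not in a promoter island. The same share over all genes was not computed. These additional regions numbered 293, of which 252 were higher and 41 lower (86.0% higher, compared with 80.0% of all CG regions). Within gene-body islands 176 of 185 were higher (95.1%), near the 96.7% of all gene-body island regions. Outside islands and promoters 63 of 95 were higher (66.3%), and the share over all such regions was not computed. By gene name, the most promoter island regions were annotated to the 5.8S ribosomal RNA genes, with 20 regions, and to Fcgr2a, with 5 that belong to 2 gene identifiers of this name. Fcgr2a encodes a receptor for the constant part of immunoglobulin G. Its regions lay between 83296766 and 83338693 on chromosome 13, and the level was lowest in Ctrl at 83337955 to 83338124, with 4.84% against 19.03% in CUMS. It was highest in Ctrl at 83297405 to 83297499, with 19.9% against 35.6% in CUMS. Bend4, which encodes a BEN domain protein, carried 3 regions, among them a stretch of 951 bp with 302 CG cytosines at 5.72% in Ctrl and 18.1% in CUMS. Erp29, an endoplasmic reticulum protein gene, also carried 3, 2 of which lay in a promoter shared with Tmem116, and their levels in CUMS were between 11.5% and 14.0%.

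The promoter genes were distributed over chromosomes 1 to 20 and the X chromosome. On chromosomes 1 to 20, 1284 of 1291 regions were higher, with medians of 6.14% in Ctrl and 17.4% in CUMS. The median difference ranged from 8.64 points on chromosome 11 to 14.4 points on chromosome 18, and on 13 of 20 autosomes every region was higher. The X chromosome, of which male cells hold a single copy, stood apart in level. Its 55 regions had medians of 10.1% in Ctrl and 30.6% in CUMS and a median difference of 18.6 points, and 50 were higher and 5 lower. At least 10 points were reached by 51 of the 55 X-linked regions. Gene-body islands showed the same contrast, with medians of 9.84% and 30.1% on the X chromosome (83 regions) and 6.06% and 16.9% on the autosomes. On the X chromosome, 5 of the 13 lower regions were found, although it held 55 of 1355 regions. The remaining 9 regions lay on unplaced scaffolds, where the medians were 22.0% and 30.3%.

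Ribosomal RNA genes, which are present in many near-identical copies, carried 21 regions in promoter islands. All were higher, with medians of 17.3% in Ctrl and 30.3% in CUMS and a median difference of 13.6 points. Because reads from such copies cannot be assigned to a single copy with certainty, these levels are uncertain as to their place in the genome.

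The regions with the largest higher level in CUMS were then described one by one. In the promoter island of Fundc2, which encodes a FUN14 domain protein of mitochondria, the level was 28.4% in Ctrl and 73.2% in CUMS at 138387 to 138788 on chromosome 18. This difference of 44.8 points was the largest of all promoter island regions, and the region was also annotated to a shore, a shelf and a repeat. ENSRNOG00000005624, described as the X-linked zinc finger protein gene, had a level of 10.1% in Ctrl and 51.9% in CUMS over 96 CG cytosines (X chromosome, 58852203 to 58852938). The region of 736 bp was annotated to an exon, an intron and the 5′ untranslated region besides the promoter.

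Crim1, which encodes a transmembrane protein that binds bone morphogenetic proteins (BMPs), had a level of 8.07% in Ctrl and 46.2% in CUMS at its TSS (chromosome 6, 16870119 to 16870314). Tox3, a high mobility group box factor gene, had 6.62% in Ctrl and 43.8% in CUMS. Rps6ka3, which encodes a ribosomal S6 kinase and is X-linked, had 22.0% in Ctrl and 58.2% in CUMS. In contrast to Crim1 and Tox3, this promoter started well above the common level of the islands.

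Capzb, the gene for the beta subunit of the actin capping protein, had 8.83% in Ctrl and 44.1% in CUMS. H3f3a, a gene for the replacement histone H3.3, had 6.74% in Ctrl and 42.0% in CUMS (chromosome 13, 92544990 to 92545140). Adamts3, which encodes a metalloproteinase that processes procollagen, had 6.62% in Ctrl and 40.8% in CUMS. In these genes an island at the common low level in Ctrl had a ratio of levels between 5.00 and 6.23. The other 2 of the 10 largest were X-linked genes without a symbol.

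The 13 lower regions held between 13 and 58 CG cytosines (median 21), and their median length was 93 bp. Their median level was 36.1% in Ctrl and 14.0% in CUMS. ENSRNOG00000003686, described as transducin beta-like 1 X-linked, showed the largest difference, with 47.3% in Ctrl and 11.2% in CUMS (X chromosome, 41575935 to 41576021). This stretch also overlapped a listed region outside the CG context, at 19.2% in Ctrl and 0.0435% in CUMS, which is described below. Rbpms, which encodes an RNA-binding protein, had 48.7% in Ctrl and 15.7% in CUMS over 47 CG cytosines (chromosome 16, 58239488 to 58239637). Bcor, the X-linked gene for a corepressor that acts with BCL6, had 39.99% in Ctrl and 14.0% in CUMS. In these promoters a Ctrl level far above that of most islands stood against a CUMS level below the median of all promoter islands.

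Dock11, an X-linked gene for an activator of the small GTPase Cdc42, had 33.0% in Ctrl and 8.17% in CUMS. Memo1, which encodes a mediator of cell motility, had 36.1% in Ctrl and 12.4% in CUMS. Uhmk1, a protein kinase gene, had 35.8% in Ctrl and 16.2% in CUMS. Of the lower regions, the Uhmk1 region was the longest, at 263 bp.

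Phf8, the X-linked gene for a histone lysine demethylase, had 27.8% in Ctrl and 8.46% in CUMS. Hist2h3c2, a histone H3 gene of a family with near-identical copies, whose reads may not be separable, had 21.8% in Ctrl and 8.22% in CUMS. Tmprss12, a serine protease gene, differed from these in remaining above 50%, with 70.7% in Ctrl and 51.8% in CUMS. Besides Zmynd11, the remaining lower regions belonged to 3 genes without a symbol.

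**Figure D4:**
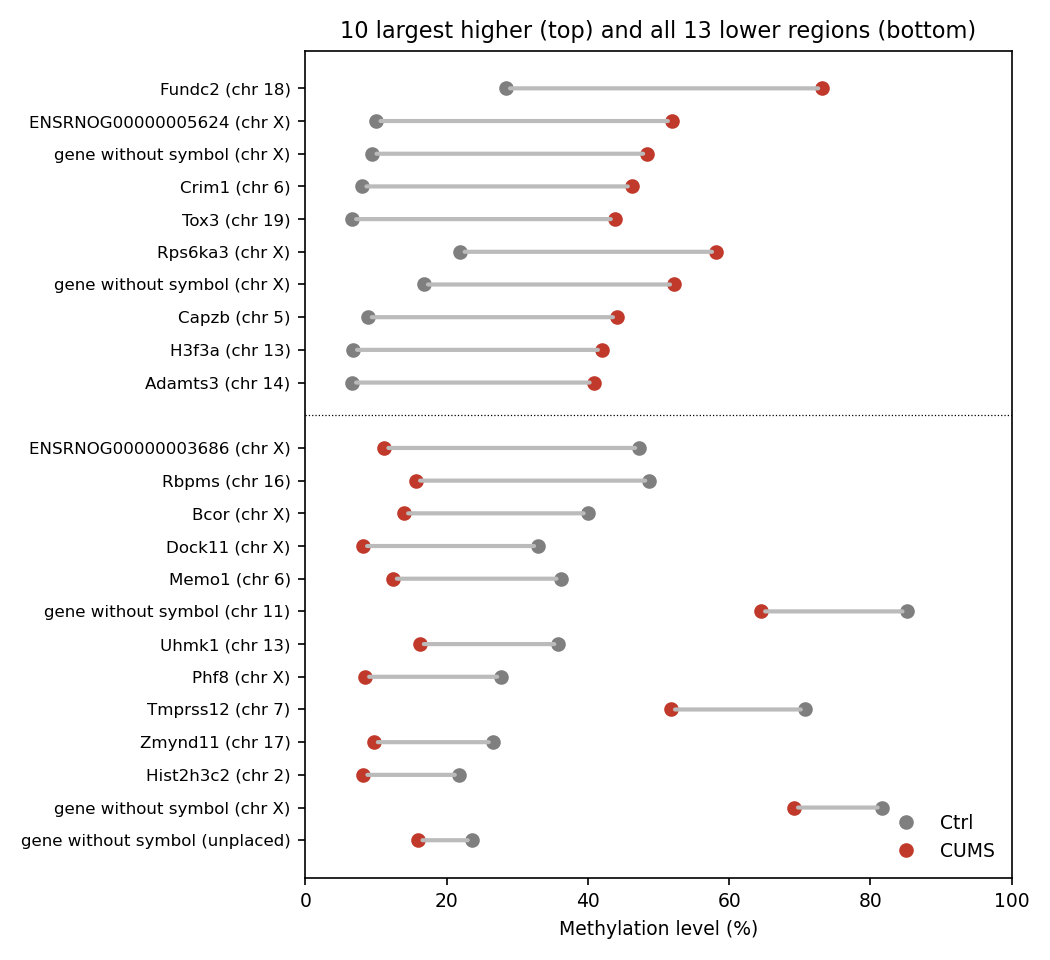
Methylation level (%) in Ctrl (grey) and CUMS (red) for the 10 promoter island regions with the largest higher level in CUMS (top, regions with at least 10 CG cytosines) and for all 13 lower regions (bottom). The higher regions start between 6.62% and 28.4%, and 10 of the lower regions start between 21.8% and 48.7% and end at 16.2% or below.

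Imprinted genes are expressed from the allele of a single parent, and islands that control them are methylated on a single parental allele. Of 38 imprinted genes in the list, 10 carried a promoter island region, in 11 regions that were all higher, and the median was 40.9% in Ctrl and 60.8% in CUMS. Since 99.0% of all promoter island regions were higher, this direction does not set the list apart. Of all RefSeq promoters, 3.32% were matched to a gene with a promoter island region, with limits given with the further lists. The 11 imprinted regions fell into 2 sets. In 7 of them the Ctrl level was between 35.6% and 55.04%, and in 4 it was between 5.29% and 9.12%.

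The first set comprised the paternally expressed genes Peg3, Sgce, Mest, Impact and Usp29, and Gnas, which encodes the stimulatory G protein alpha subunit. At the promoter shared by Peg3 and Usp29 the level was 35.6% in Ctrl and 67.0% in CUMS (chromosome 1, 67097712 to 67098114). Sgce, which encodes epsilon-sarcoglycan, had 40.9% and 66.9% at its TSS and 50.1% and 71.7% in the neighbouring region (chromosome 4, 32842184 to 32843310). Mest had 54.3% in Ctrl and 73.9% in CUMS. In all of them a level near the middle of the scale in Ctrl stood against a higher level in CUMS.

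Impact had 55.04% in Ctrl and 72.3% in CUMS, Gnas 43.6% and 60.8%, and the second region of Usp29 43.0% and 54.7%. These were the smaller differences of the set, between 11.8 and 17.3 points. The second set comprised the growth factor gene Igf2 (9.12% and 28.4%), the promoter shared by the deiodinase gene Dio3 and Mir1247 (5.29% and 18.7%), Grb10 (7.72% and 14.5%) and Dlk1 (5.92% and 10.7%). Their Ctrl levels were below 10%, as in most promoter islands. In Ctrl, 32 promoter island regions of any gene had a level of 30% or more, of which 23 were higher and 9 lower in CUMS, so that the first set of imprinted genes made up 7 of these 23.

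The gene lists were used to describe further groups, and the median difference of all promoter island regions, 11.4 points, serves as the comparison. Of the 27457 RefSeq promoters described below, 3.32% were matched to a gene with a promoter island region. Only 67.1% of the promoter genes were matched, so this share can be too low, and it is not limited to promoters in islands. The list counts were made by gene symbol and not by promoter. They therefore differ from this share in unit, and enrichment of a list was not tested. Since 99.0% of all promoter island regions were higher, a list in which every region was higher does not stand apart by its direction. Developmental transcription factors are described first. Homeobox and Pax factors accounted for 29 regions in 28 of 191 genes, all higher, with a median difference of 12.2 points. Pou3f3 had 11.99% in Ctrl and 42.2% in CUMS, and Pou3f1, a POU factor of the same class, had 7.93% and 34.6%. Hoxd13, a posterior Hox gene, had 7.37% and 37.0%. These genes were named because their differences were the largest of the list. Of the 29 regions, 19 reached 10 points, a size reached by 60.7% of all promoter island regions.

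Basic helix-loop-helix factors accounted for 16 regions in 15 of 71 genes, with a median difference of 13.2 points. Tcf4, which encodes an E protein, had 8.08% in Ctrl and 36.8% in CUMS, Ebf4 8.19% and 33.9%, and the circadian repressor gene Bhlhe40 7.51% and 26.0%. Fox, Sox, T-box, Zic, Klf and Gata factors accounted for 17 regions in 15 of 117 genes, with a median of 10.8 points. Sox1, a neural progenitor factor, had 8.93% and 32.6%, and Sox5 6.06% and 25.2%. All regions of both lists were higher.

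Among 70 endothelial and blood–brain barrier genes, 3 carried a promoter island region, in 4 regions that were all higher, with a median difference of 12.1 points. Foxf2, a transcription factor of brain endothelium and pericytes, had 5.74% in Ctrl and 22.9% in CUMS at 32842570 to 32842763 on chromosome 17, and 5.66% and 16.1% in a second region. Foxc1, a related vascular factor, had 5.94% and 19.1%. Ctnnb1, which encodes beta-catenin, the transducer of Wnt signals and a junction protein, had 5.07% and 16.1% at its TSS. The claudin, occludin and zonula occludens genes of the list carried none, but the list did not hold all tight junction genes, and the claudin gene Cldn7, named after its values were seen, had 6.44% and 17.3%.

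Wnt signalling maintains the barrier in brain endothelium, and 12 of 63 genes of the pathway carried 13 regions, all higher, with a median difference of 11.9 points. Of the ligands, Wnt7a had 11.4% in Ctrl and 29.0% in CUMS at its TSS and 14.0% and 34.5% in a neighbouring region. Of the transcription factors, Tcf7l1 had 5.97% and 30.8% (chromosome 4, 104845115 to 104845491). Other members were the receptor gene Fzd4 (6.20% and 17.0%) and the coreceptor gene Lrp5 (5.78% and 13.1%). Ligands, receptors and intracellular members of the pathway thus all appeared among the promoter islands.

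In the TGF-beta and BMP pathway, 14 of 77 genes carried a region each, all higher, with a median difference of 12.8 points. The receptor gene Acvr2b had 8.49% in Ctrl and 35.0% in CUMS, the BMP antagonist gene Nog 10.1% and 36.5%, and Bmp1, which encodes a procollagen proteinase, 5.98% and 31.2%. Signal transducers were represented by Smad2 (6.87% and 23.4%) and Smad3 (5.51% and 16.0%), and ligands by Tgfb1 (6.58% and 16.1%) and Bmp4 (4.01% and 9.33%). Smaller differences were those of the antagonist gene Grem1 (5.34% and 11.2%) and the receptor gene Acvr2a (7.32% and 15.9%).

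Stress axis and neurotrophin genes carried 6 regions in 5 of 29 genes, all higher, and their median difference of 9.54 points lay below that of all promoter islands. Nr3c1, which encodes the glucocorticoid receptor, had 7.27% in Ctrl and 21.6% in CUMS over 141 CG cytosines (chromosome 18, 31362025 to 31362504). Fkbp5, which encodes a chaperone that limits glucocorticoid receptor activity, had 5.73% and 16.0% at its TSS and 5.12% and 9.56% in a second region. Ntrk2, the receptor gene for brain-derived neurotrophic factor, had 3.90% and 17.1%. The mineralocorticoid receptor gene Nr3c2 had 7.96% and 16.7%, and the glucocorticoid-induced kinase gene Sgk1 4.25% and 10.0%. None of the 6 regions reached 20 points. That size was reached by 14.9% of all promoter island regions, so its absence among 6 does not set these genes apart.

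Genes that write, erase or read DNA methylation carried 3 regions among 23 genes. Tet3, which encodes an enzyme that oxidises 5-methylcytosine, had 12.9% in Ctrl and 41.0% in CUMS at a TSS. Kdm2b, which encodes a CXXC protein that binds unmethylated islands, had 6.66% and 26.4%, and Cxxc4, another CXXC gene, had 7.44% in Ctrl and was higher by 11.6 points. No DNA methyltransferase gene carried a region in a promoter island. Of 42 homocysteine and one-carbon metabolism genes, which supply the methyl groups, 0 carried one. With 3.32% of all RefSeq promoters matched to a gene with a region, counts of 0 among so few genes do not stand apart.

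Histone and chromatin regulator genes accounted for 24 regions in 23 of 326 genes, with 23 higher, 1 lower (Hist2h3c2) and a median difference of 14.1 points. Besides H3f3a, Cbx8, a Polycomb gene, had 7.26% in Ctrl and 36.7% in CUMS. Phc1, another Polycomb gene, had 12.5% and 46.2%, but over 5 CG cytosines. Zinc finger protein genes accounted for 28 regions in 26 of 545 genes, all higher, with a median of 13.001 points. Among them were Zfp521 (10.5% and 39.0%) and the X-linked Zfp275 (7.14% and 33.8%).

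Calcium channel, store and pump genes carried 12 regions in 10 of 63 genes, all higher, with a median difference of 14.8 points. Cacna1h, a T-type channel gene, had 7.54% in Ctrl and 36.7% in CUMS. The auxiliary subunit genes Cacna2d3 and Cacnb4 had 13.8% and 42.7%, and 10.1% and 37.1%. The endoplasmic reticulum pump gene Atp2a2 had 6.91% and 24.95%, and the ryanodine receptor gene Ryr2 5.20% and 15.6%. Pore-forming, auxiliary and store genes were thus all represented.

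Potassium channel genes carried 8 regions in 8 of 97 genes (median difference 11.99 points), and glutamate and GABA receptor genes 7 regions in 7 of 48 genes (13.3 points). All were higher. Kcnma1, which encodes the large-conductance calcium-activated channel, had 7.45% in Ctrl and 26.9% in CUMS, Kcnd3 8.29% and 25.7%, and Kcna3 7.03% and 21.5%. Gabbr2, which encodes a subunit of the metabotropic GABA receptor, had 5.80% and 22.5%. The glutamate receptor gene Grik5 shared a promoter region with Zfp574, at 6.74% and 31.4%.

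Solute carrier genes carried 14 regions in 14 of 423 genes (10.8 points), all higher, led by Slc22a17 (9.40% and 35.4%), the zinc exporter gene Slc30a1 (8.32% and 29.2%) and the sodium-proton exchanger gene Slc9a2 (6.44% and 24.2%). Cadherins and protocadherins carried 4 regions in 4 of 82 genes, namely Cdh22 (6.72% and 29.8%), Pcdh1 (9.04% and 24.9%), Cdh23 (7.18% and 14.0%) and Fat4 (4.16% and 9.96%). A list built from the symbols of ribosomal proteins matched 4 regions, 2 of which belong to the kinase genes Rps6ka1 and Rps6ka3 and not to ribosomal proteins. The others were Mrps31 (5.43% and 17.8%) and Rpl19, in a promoter shared with the calcium channel gene Cacnb1 (6.63% and 21.2%).

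Marker lists of other cell types were described in the same way. Of 16 neuronal markers, Syn1 carried a region (7.81% in Ctrl and 16.2% in CUMS), and of 11 pericyte and smooth muscle markers, Notch3 did (5.97% and 23.8%). The lists of 9 astrocyte, 11 oligodendrocyte and 12 microglia and leukocyte markers held 0 regions, as did the list of 42 germline genes. In lists of this size such counts do not stand apart from the 3.32% of all RefSeq promoters. These lists are wider than the 24 defining markers. Whether the cell composition of the sorted samples differed between the groups was not tested.

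**Figure D5:**
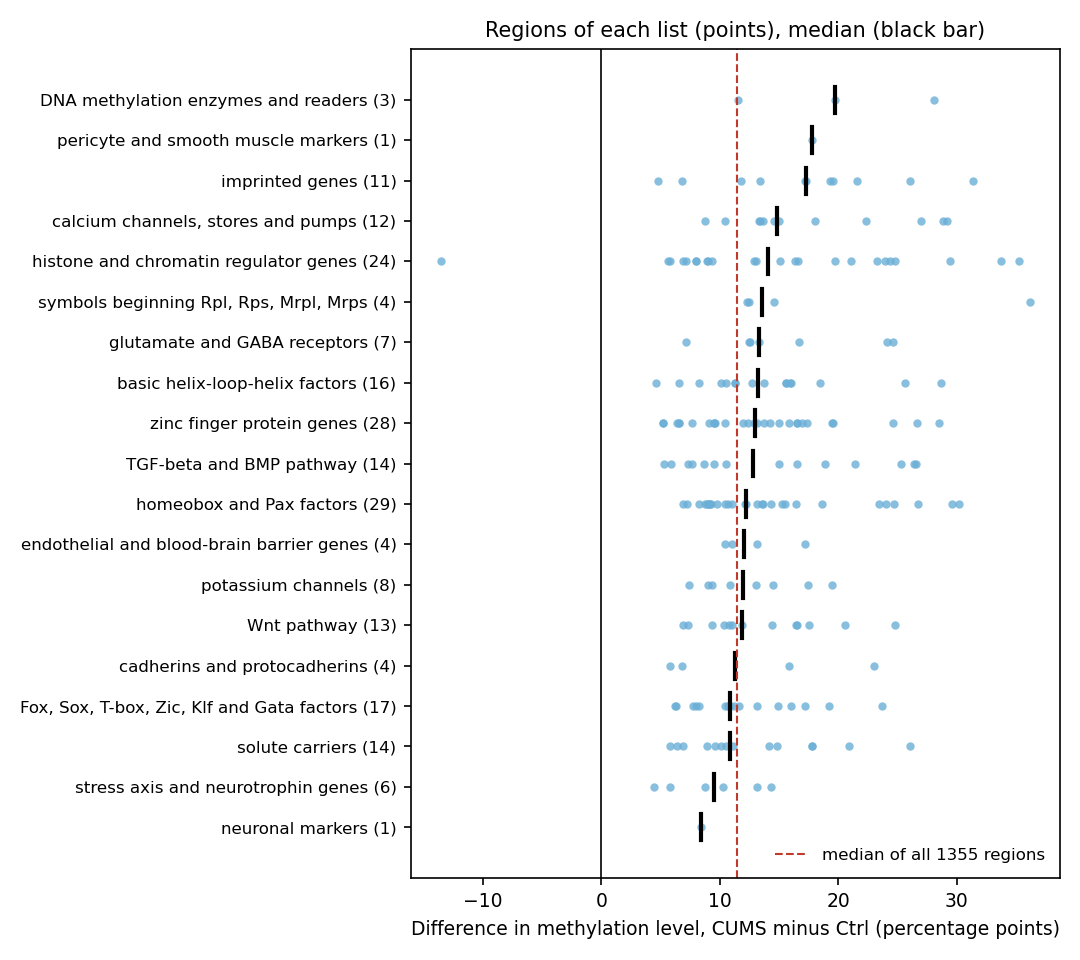
Difference in methylation level, CUMS minus Ctrl in percentage points (x axis), for every promoter island region of each gene list with a region (number of regions in parentheses). Points are regions, black bars are list medians, and the dashed line is the median of all 1355 regions, 11.4 points. All points lie above 0 except that of Hist2h3c2, and the list medians lie between 8.39 points (Syn1 alone) and 19.7 points.

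The level of 50% was crossed by 14 regions, all of them upward. Besides Fundc2, ENSRNOG00000005624, Rps6ka3, Peg3, Sgce, Usp29 and Gnas, these were regions of ribosomal RNA genes and of genes without a symbol. None of the 13 lower regions crossed it.

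Because enzymatic conversion reads an undeaminated cytosine as methylated in every context, regions of the CHG and CHH contexts (where H stands for A, C or T) that overlapped the promoter island regions by at least 1 bp were examined. Of the 1355 regions, 41 (3.03%) overlapped a CHG region, compared with 3.05% of gene-body island regions and 1.93% of all CG regions. In 39 of these 41 pairs (95.1%) the direction was the same, as it was in 95.5% of the pairs of gene-body islands and in 90.3% of those of all CG regions. In the 38 CHG regions that were higher in CUMS, the median level was 0.0329% in Ctrl and 7.50% in CUMS. Annotated CHH regions overlapped 16 promoter island regions (1.18%, compared with 0.513% of all CG regions). All 16 CHH regions were higher in CUMS, with medians of 0.147% and 6.69%. The other 3 CHG regions were lower in CUMS. At the lower promoter island region of ENSRNOG00000003686, the CHG level was 19.2% in Ctrl and 0.0435% in CUMS. An overlapping CHH region of the full list had 10.9% and 0.0719% there. The CHG regions at Cln6 (8.05% and 0.144%) and at a gene without a symbol (4.89% and 0.120%) overlapped CG regions that were higher. With or without an overlap, 68.6% of CHG regions, 78.5% of annotated CHH regions and 64.6% of CHH regions in the full list were higher in CUMS. In the full list, 90 promoter island regions (6.64%) overlapped a CHH region, compared with 5.06% of gene-body island regions and 4.15% of all CG regions. In these 90 pairs the CHH region was higher in CUMS in 78 and lower in 12.

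Ntrk2 was among the genes with such a pair. Its CHH level was 0.0427% in Ctrl and 6.20% in CUMS at 5869693 to 5870023, which contains its CG region. In all, 91 promoter island regions (6.72%) overlapped a CHG or CHH region of the full list, and 1264 did not. The same combined count was not made over all CG regions. The regions without such an overlap had a median CUMS level of 17.9% and a median difference of 11.4 points, and those with an overlap 17.2% and 11.8 points. Their median ratios of the CUMS to the Ctrl level were 2.77 without and 3.13 with an overlap. Their median Ctrl levels were 6.30% and 5.66%. Where no non-CG region was listed, the non-CG level itself is not known. The part of incomplete deamination in these levels was not tested, and levels of the unmethylated spike-in DNA that the study's methods mention were not analysed here.

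The promoters of these genes were also compared in sequence with all RefSeq promoters. Of 1360 promoter genes, 913 (67.1%) were matched to a RefSeq promoter on GRCr8, which gave 912 windows of 300 bases, from 250 before to 50 after the start. The median number of CG dinucleotides was 30.5 in these windows and 7 in all 27457 RefSeq promoters, and the median GC content was 70.0% and 52.3%. This contrast follows from the choice of promoters within islands.

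Short motifs were searched on both strands, and the letters of no motif lie within those of another. Member promoters were chosen within islands, so motif contrasts with all promoters cannot be told apart from their higher GC content. Other island promoters were not compared. The SP1 motif GGGCGG was found in 79.7% of the member promoters and in 34.9% of all promoters. The TATA box motif TATAAA was found in 4.50% and 14.3%. The E-box CACGTG was found in 11.4% and 6.65%.

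The NRF1 motif TGCGCA was found in 11.8% of the member promoters and in 7.68% of all promoters, the cyclic AMP response element TGACGTCA in 3.40% and 1.91%, and the ETS motif CCGGAAGT in 3.18% and 4.01%. Of the sequences printed above, those of Mest, Sgce, Crim1, H3f3a, Rps6ka3, Bcor, Memo1 and Foxf2 held the SP1 motif, that of Peg3 held the cyclic AMP response element, and that of Nr3c1 held none of the 6 motifs. Promoters of the lower regions did not stand apart in CG content, with a median of 27 CG dinucleotides in 8 matched promoters.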

How the data were processed

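The authors converted DNA enzymatically and sequenced it. FastQC (0.11.3), fastp (0.20.0), Bismark (0.16.3) and Bowtie2 are named in the submitters' processing notes, and DSS was used to call regions between groups, per the study's methods. The deposited methylation levels are a fraction from 0 to 1, given as 1 mean per region and group, and were multiplied by 100 here. How the authors formed this mean over cytosines and samples is not given in the sources used here. Coordinates are on mRatBN7.2. The extent of the promoter annotation and the strands counted for CG cytosines are not given in the sources used here.

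Rows of the annotation table were joined by chromosome, start, end and context, and CG regions with both a CpG island and a promoter row were kept. The difference was computed as CUMS minus Ctrl. The table also holds the authors' own difference and region score, which were not used. The score was replaced by the absolute difference multiplied by the number of cytosines in the rules that had named it, which were the largest hypermethylated regions and the choice of 1 region per gene. No depth or value per sample was given, so the permutation test foreseen was not possible and no interval is printed.

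Named genes were the 10 largest differences in each direction among regions with at least 10 cytosines, up to 3 per gene list, the 5 largest by difference and cytosines, the 5 genes with the most regions, and regions crossing 50%. Genes without a symbol were counted, except for 2. Some genes covered by this rule are not reported here. Additional list members and the remaining lower regions were named after their values were seen. Members and lists were chosen with earlier results of these data known. Gene list sizes defined by symbol patterns and the promoter sequences came from RefSeq tables of GRCr8. Region finding was tested on simulated data. Python 3.11.15, pandas 2.3.3, numpy 2.4.6 and matplotlib 3.10.9 were used.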

Additional observations from a re-analysis of the deposited data

How the results depend on the processing

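The tables limit the results most, since they hold a single level per group and neither read numbers nor samples. Leaving out each replicate and a replicate block were foreseen but not run. No paired analysis was possible because only a pooled level per group was given. Under 14 other settings most regions were higher in CUMS. A minimum of 10 percentage points left 811 higher regions. A minimum of 20 points left 196 higher and 6 lower regions (97.0% higher), with a median CUMS level of 33.9% and a median difference of 24.8 points. A minimum length of 200 bp left 361 higher and 2 lower regions (99.4%). Regions with a TSS numbered 425 higher and 1 lower (99.8%), and regions without a gene-body annotation 447 and 7. Chromosomes 1 to 20 without ribosomal RNA genes, a setting chosen after the data were seen, left 7 lower regions (99.4% higher). The smaller counts follow from the fewer regions kept, and the larger medians at 20 points from selecting on the difference itself. The cause of the shifts in the share of higher regions was not tested. In the full list of CHH regions, which is longer than the annotated one, 90 promoter island regions overlapped a CHH region, compared with 16. Of 92 values, 75 moved by less than 1.5 times or, for the share of higher regions, stayed within its 95% binomial interval. That interval counts regions as independent, although they share islands and pooled levels. It served only to sort the values and does not measure the spread between rats. Joining neighbouring regions, taking 1 region per gene, and leaving out regions with non-CG overlap (also chosen after the data were seen) were among the settings in which none of the 6 values of direction and level moved.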

Other observations

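Of the 15 regions with a Ctrl level of at least 50%, 12 were higher and 3 lower in CUMS. Names here were chosen after the values were seen and no list was tested. Riiad1 had 52.8% in Ctrl and 81.7% in CUMS, a difference of 29.0 points. Spaca1, which encodes a sperm acrosome protein, had 69.4% and 81.3%. Spesp1, another sperm protein gene, had 55.1% and 74.2%, and Adad1 had 58.3% and 70.4%. Tmprss12 was in the opposite direction, with 70.7% in Ctrl and 51.8% in CUMS. None of these genes was on the list of germline genes, which held 0 regions.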
